A study of Mus musculus with 9 samples.

Results

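Some genes of the laboratory mouse are known for alleles that destroy, shorten or multiply them in one common inbred strain and not in another. Whole-lung signals were read here for such genes. The list held 8 genes: Nnt, Hc, Mx1, Mx2, Casp4, Glo1, Pde6b and Disc1. Members were every probe set annotated to exactly 1 of these symbols, and 12 of 45037 met that rule once control probe sets were set aside. They covered 7 genes, with 4 probe sets for Glo1, 3 for Nnt and 1 each for Hc, Mx1, Mx2, Casp4 and Pde6b. Disc1 had no probe set under its single symbol in the annotation used and was not analysed here.

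Right lungs came from C57/BL6 mice (BL6), FVB/N mice and SV129 mice. In each strain 2 arrays came from mice held for 4 weeks at a pressure of 50 kPa, called hypoxic here, and 1 array from mice kept for 4 weeks at 85 kPa, the altitude pressure of Denver, called normoxic. The labels give no substrain, age or sex, and they do not say whether an array held 1 animal or a pool, or whether each array had its own animal. The p-values therefore cover the spread among these arrays alone, and that spread may be technical. The normoxic mice lived at reduced pressure too, and the 9 arrays limit the precision.

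As background, Nnt encodes an enzyme of the inner mitochondrial membrane that uses the proton gradient to make NADPH, and the C57BL/6J substrain carries a deletion of several of its exons that other BL6 substrains lack. Hc encodes complement component 5, the precursor of the membrane attack complex and of a chemotactic fragment. FVB/N mice carry a small frameshift deletion in Hc and are known to lack the serum protein. Casp4, often called caspase-11 in mice, senses bacterial lipopolysaccharide in the cytosol, and strains of the SV129 family carry a deletion at a splice site of this gene. Mx1 and Mx2 are interferon-induced antiviral GTPases disrupted in most laboratory strains. The RefSeq gene table, which describes C57BL/6J, lists both as transcribed pseudogenes. Glo1, the glyoxalase that clears methylglyoxal, lies in a segment that is duplicated in some strains. Pde6b, a subunit of the rod photoreceptor phosphodiesterase, carries the retinal degeneration allele in FVB/N. Disc1 carries a deletion in strains of the SV129 family. Where each probe set lies in its transcript was not used here, so a level does not tell whether the product of an allele is intact. In whole lung, fewer cells of a type and less RNA per cell cannot be told apart.

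Levels below are deposited signals, or log2 signals after adding 16 and quantile normalisation. A strain difference is the first strain minus the second over all 3 arrays of each, fitted with limma with condition as a second term, and folds are on the log2(signal + 16) scale. Adjusted p is Benjamini-Hochberg over the 27022 probe sets past a filter on dim signals, and passing means below 0.05. Of the 12 probe sets 10 passed the filter, from 6 genes. The probe set of Pde6b and 1 of the 3 of Nnt did not.

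Transcripts of other tissues stood out on some arrays, and bacterial control transcripts differed between the conditions. All 10 lung markers examined, such as surfactant protein and capillary endothelial genes, had signals of at least 1635 on every array, so markers of the labelled tissue were present. Kidney markers stood out on 2 arrays, the normoxic FVB/N one and hypoxic BL6 array 2, called the kidney-positive arrays, where 14 of 14 lay more than 1 log2 unit above their median. The mean log2 level of the kidney list was 12.76 and 11.84 there, against 5.62 to 6.19 on the other 7 arrays, and its summed signal was 139860 and 89950 against 774 to 1768. The normoxic FVB/N array also held brown adipocyte and skeletal muscle transcripts, with a summed signal of 22056 over 8 markers against 532 to 968 elsewhere. Bacterial control transcripts added at hybridization separated the conditions on 7 of 7 probe sets without overlap. The 3′ bioC probe set read 959 to 1595 on hypoxic arrays and 301 to 315 on normoxic ones, and the 5 bioB and bioC probe sets were all higher on hypoxic arrays. Both bioD probe sets were lower there, the 3′ one at 4512 to 7892 on hypoxic arrays and 10667 to 12894 on normoxic ones. Exposure and these control differences cannot be told apart in the hypoxia comparison.

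Levels of 4 genes differed between strains, on 1 probe set each. At least 1 strain comparison was passed by 4 of the 10 tested probe sets, 1 each of Hc, Casp4, Nnt and Glo1, where 4.88% of all tested probe sets passed at least 1. For BL6 minus FVB/N 3 of 10 passed (2.07% of all), for BL6 minus SV129 2 of 10 (2.51% of all) and for FVB/N minus SV129 3 of 10 (2.89% of all). Hc was lower in FVB/N and Casp4 in SV129. Only 1 of the 2 tested Nnt probe sets passed, 1456573_x_at, lower in BL6 but with overlap between the arrays of the strains. Only 1 of the 4 Glo1 probe sets passed, lower in FVB/N. The 3 arrays of one strain lay apart from the 3 of the other on 5 of 10 probe sets for BL6 and FVB/N (14.9% of all), on 3 of 10 for BL6 and SV129 (21.7% of all) and on 4 of 10 for FVB/N and SV129 (17.8% of all). The median difference over the 10 was −0.16, 0.12 and 0.35 in these comparisons, against −0.01, −0.03 and −0.03 over all tested probe sets.

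**Figure D1:**
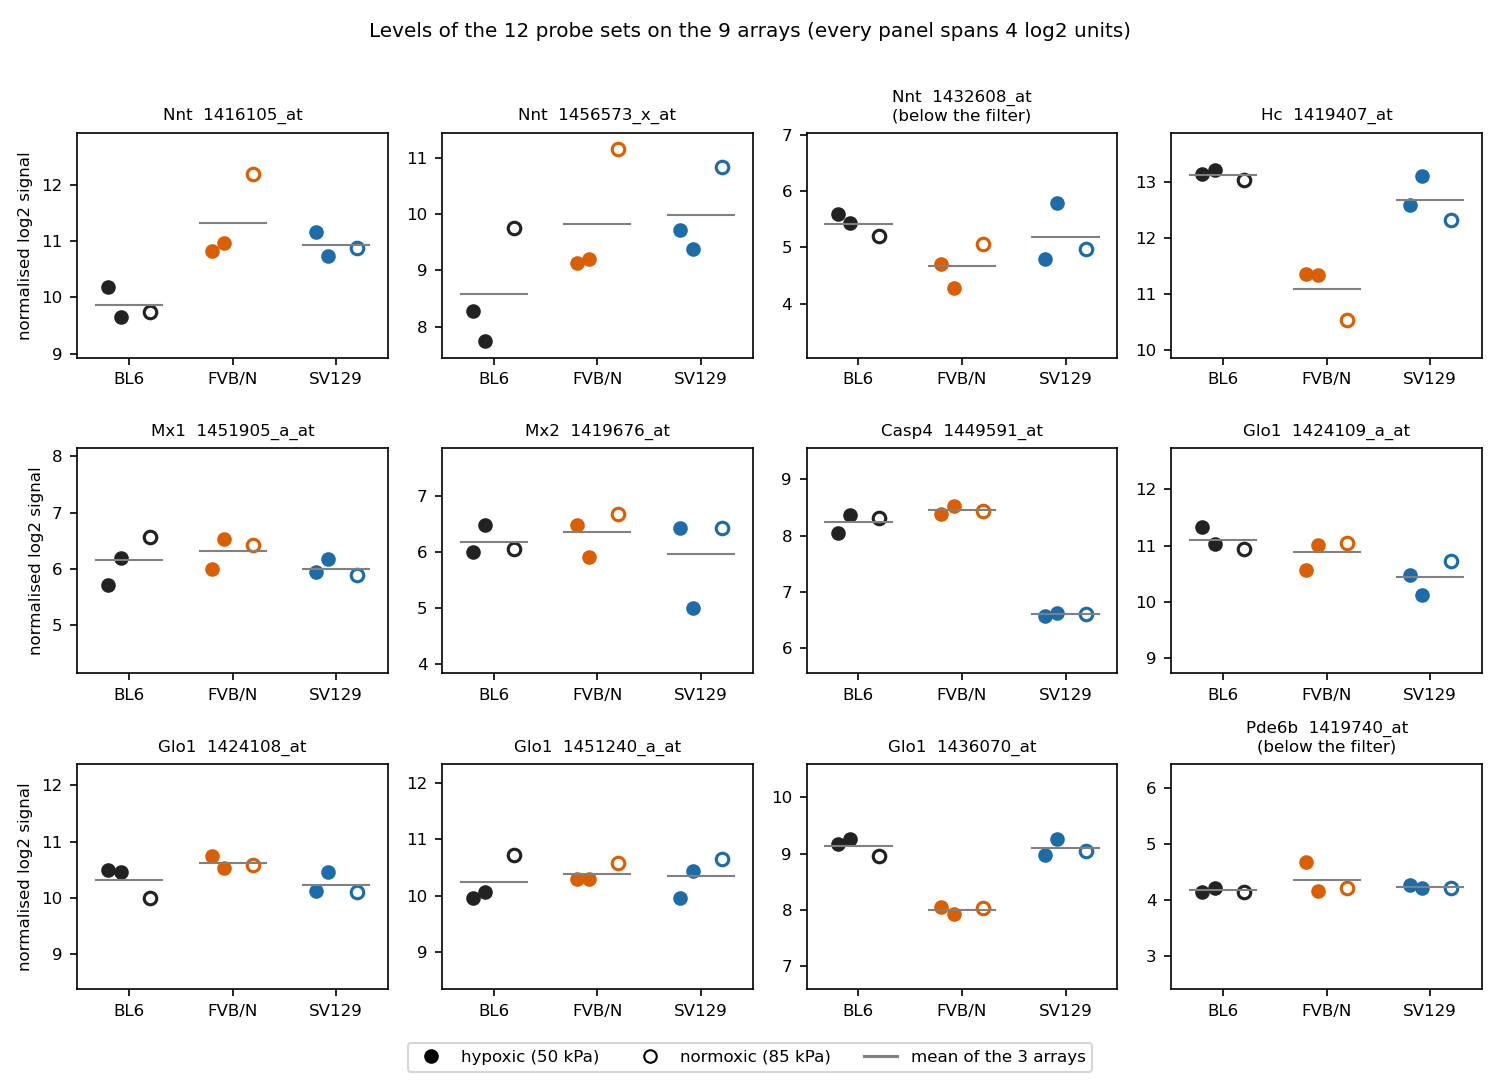
Normalised log2 signal (y axis) of the 12 probe sets in BL6, FVB/N and SV129 lung (x axis), with a filled point per hypoxic array, an open point per normoxic array and a line at the mean of the 3 arrays. The 3 SV129 points of Casp4 lie together at 6.58 to 6.63, and the FVB/N points of Hc at 10.54 to 11.37 lie below all others of that gene.

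Casp4 was lower in SV129 than in both other strains. Its signal was 259 and 317 on the hypoxic BL6 arrays and 314 on the normoxic one. In FVB/N the hypoxic arrays read 306 and 360 and the normoxic one 313. In SV129 the hypoxic arrays read 79.5 and 83.2 and the normoxic one 87.2. Every SV129 array was thus below every array of the other strains, with a gap far wider than the spread within a strain. The mean log2 level was 8.25 ± 0.166 in BL6, 8.45 ± 0.0701 in FVB/N and 6.61 ± 0.0295 in SV129 (SD, n = 3 each).

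BL6 lung had 3.11-fold more Casp4 signal than SV129 lung (log2 difference 1.64 ± 0.182 SE, limma adjusted p = 0.00227). FVB/N lung had 3.59-fold more than SV129 lung (1.84 ± 0.182, adjusted p = 0.000978). BL6 minus FVB/N was −0.20 ± 0.182 and did not pass (adjusted p = 0.762). Both calls held in each of 21 other settings, with adjusted p no higher than 0.0239 for BL6 and 0.0317 for FVB/N against SV129. Hypoxic and normoxic arrays differed by −0.03 ± 0.157 (adjusted p = 0.94), at signals of 79.5 to 360 and 87.2 to 314.

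Relatives of Casp4 in inflammasome signalling did not pass where it did. Of 12 such genes listed 10 were tested, and 0 passed any of the 3 strain comparisons, where 2.18%, 2.29% and 2.89% of all genes passed. At an unadjusted p below 0.05 limma counted 1, 3 and 3 of them for BL6 minus FVB/N, BL6 minus SV129 and FVB/N minus SV129. The inflammatory caspase gene Casp1, next to Casp4 among the genes measured, had −0.08 ± 0.263 for BL6 minus SV129 and −0.18 ± 0.263 for FVB/N minus SV129. Casp12, on the other side, had −0.02 ± 0.252 and 0.04 ± 0.252. Gsdmd, whose product forms the pyroptotic pore after cleavage by caspase-11, had 0.02 ± 0.276 and 0.01 ± 0.276. Casp1, Casp12 and Gsdmd were not among the genes counted at an unadjusted p below 0.05 in these 2 comparisons. The list medians were 0.00 and 0.02 for these comparisons, against −0.02 for all genes in both.

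Some neutrophil and macrophage markers differed between the same strains. Of 5 neutrophil markers tested 1 was higher in BL6 than in SV129 (2.29% of all genes passed) and 2 were higher in FVB/N than in SV129 (2.89% of all passed), with list medians of 1.25 and 1.60. The summed neutrophil signal was 3988 to 6734 in BL6, 12885 to 24032 in FVB/N and 1304 to 7498 in SV129. Of 8 macrophage markers 0 were higher and 1 lower in BL6 than in SV129 (median 0.03), and 0 were higher and 3 lower in FVB/N than in SV129 (median −0.66), against the same shares of all genes. The part of either cell type in the Casp4 result was not tested.

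The sequences upstream of Casp4 and, further on, Hc are shown because the strain calls of these genes held in all 21 other settings. That of Casp4 is the C57BL/6J reference, 250 bases up to the transcript start at chr9:5308599-5308848 on the plus strand of GRCm38.p6, from RefSeq. Capitals mark matches to an NF-kB motif, searched on both strands as GGG, then any 2 bases, then TTTCC.
Casp4: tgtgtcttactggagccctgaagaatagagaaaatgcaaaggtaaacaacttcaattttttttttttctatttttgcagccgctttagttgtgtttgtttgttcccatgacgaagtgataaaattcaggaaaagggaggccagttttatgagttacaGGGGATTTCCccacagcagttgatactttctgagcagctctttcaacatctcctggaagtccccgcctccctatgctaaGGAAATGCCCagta
The motif occurred 2 times in these 250 bases, and 1.41% of 32841 promoter windows of that length held it at least once. The motif was picked after the sequence had been seen, a match is only a run of letters, and the FVB/N and SV129 sequences were not used here.

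Hc was lower in FVB/N than in both other strains. Its signal was 8851 and 9466 on the hypoxic BL6 arrays and 7980 on the normoxic one. In FVB/N the hypoxic arrays read 2663 and 2587 and the normoxic one 1443. In SV129 the hypoxic arrays read 6269 and 9058 and the normoxic one 4937. No FVB/N array reached the lowest array of the other strains, and BL6 and SV129 overlapped. Mean log2 levels were 13.12 ± 0.0887 in BL6, 11.09 ± 0.471 in FVB/N and 12.67 ± 0.405 in SV129 (SD, n = 3 each).

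BL6 lung had 4.10-fold more Hc signal than FVB/N lung (log2 difference 2.04 ± 0.181 SE, limma adjusted p = 0.000549). The FVB/N minus SV129 difference was −1.58 ± 0.181, lower in FVB/N (adjusted p = 0.00222). BL6 minus SV129 was 0.45 ± 0.181 and did not pass (adjusted p = 0.261). The 2 calls held in all 21 other settings, and without the 2 kidney-positive arrays the differences were 1.93 and −1.42 (adjusted p = 0.00503 and 0.00818).

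In each strain the normoxic array read lower for Hc than either hypoxic array. The hypoxic minus normoxic difference was 0.50 ± 0.157 and did not pass over the 3 strains (adjusted p = 0.111). It was 0.14 in BL6, 0.82 in FVB/N and 0.53 in SV129 (± 0.226 each), and the interaction of strain and exposure did not pass (adjusted p = 0.616). When arrays were centred on their medians instead of quantile normalised, the difference over the strains was 0.64 and passed (adjusted p = 0.0489).

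Other tested complement genes of the lytic pathway did not pass where Hc did. Of 10 listed components and receptors 7 had a probe set and 4 passed the filter, and 0 of the 4 passed a strain comparison or the hypoxia comparison (2.75% of all genes passed for hypoxia). At an unadjusted p below 0.05 limma counted 1, 0, 1 and 1 of them for BL6 minus FVB/N, BL6 minus SV129, FVB/N minus SV129 and hypoxic minus normoxic. C6, which binds the activated fragment of component 5, had −0.10 ± 0.213 for BL6 minus FVB/N and −0.21 ± 0.213 for FVB/N minus SV129. C5ar1, the receptor for the chemotactic fragment, had −0.06 ± 0.559 and −0.18 ± 0.559. Cd59a, the gene counted at an unadjusted p below 0.05 in both comparisons, had −0.86 ± 0.258 and 0.69 ± 0.258 (limma adjusted p = 0.167 and 0.228). It was thus higher in FVB/N, where Hc was lower.

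Macrophage markers moved with Hc. Of 8 tested, 4 were higher in BL6 than in FVB/N (2.18% of all genes passed) and 3 were lower in FVB/N than in SV129 (2.89% of all passed), with list medians of 0.85 and −0.66. Chil3, an abundant secreted protein of alveolar macrophages, was 4.37-fold higher in BL6 than in FVB/N (13.32 ± 0.268 and 11.19 ± 0.0586, SD, n = 3 each, limma adjusted p = 0.000121). The scavenger receptor gene Marco was 5.71-fold higher in BL6 than in FVB/N (adjusted p = 0.00417). The summed macrophage signal was 34867 to 41587 in BL6, 22285 to 28311 in FVB/N and 33565 to 47390 in SV129, without overlap between FVB/N and the others, as for Hc. Of 5 liver markers with a probe set only 1 passed the filter, and the summed liver signal was 51.4 to 218 on 8 arrays and 1829 on hypoxic BL6 array 2. The part of macrophages or liver in the Hc result was not tested.

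The reference sequence upstream of Hc is given for the same reason as that of Casp4, at chr2:35061413-35061662 on the minus strand of GRCm38.p6, from RefSeq. Capitals mark a match to TATAAA, searched on both strands, which begins at base −239 from the annotated start.
Hc: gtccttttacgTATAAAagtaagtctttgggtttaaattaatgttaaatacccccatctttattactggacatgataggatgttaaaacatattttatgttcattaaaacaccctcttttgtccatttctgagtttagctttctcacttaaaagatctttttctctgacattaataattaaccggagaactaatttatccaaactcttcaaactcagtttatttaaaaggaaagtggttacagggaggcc
Of the 32841 windows 12.4% held this motif, so it is common.

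**Figure D2:**
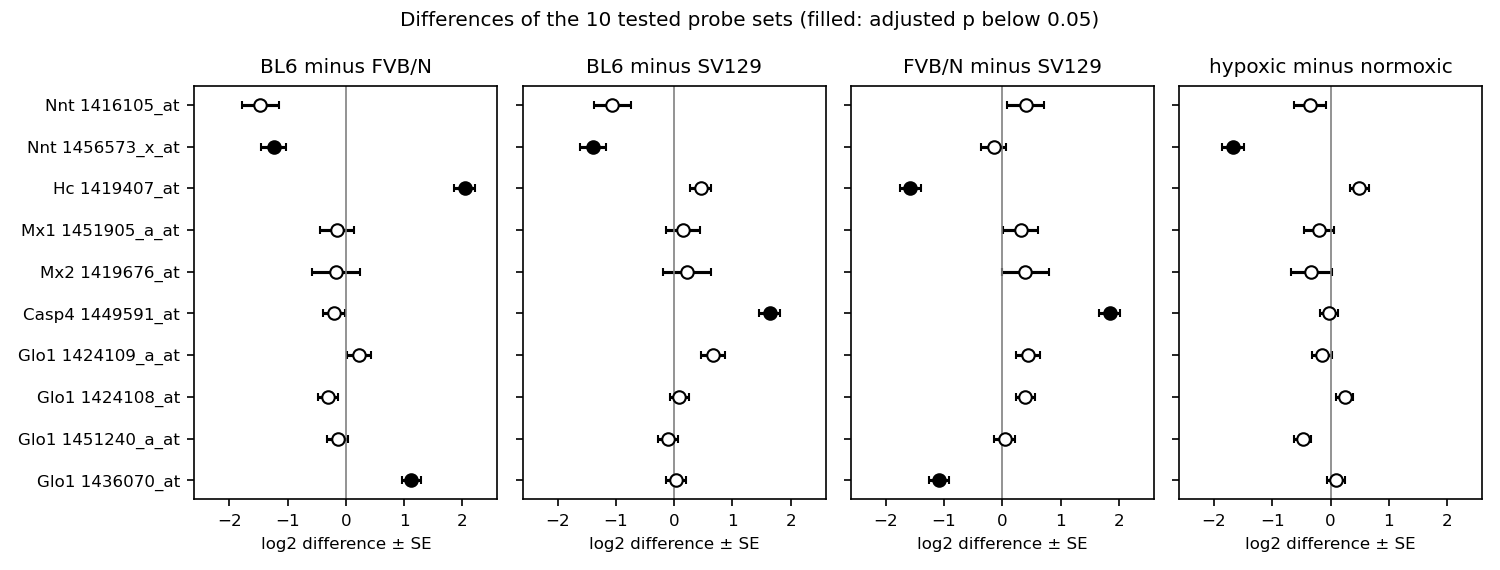
Log2 differences ± SE (x axis) of the 10 tested probe sets (rows) for the 3 strain comparisons and for hypoxic minus normoxic, filled where the adjusted p is below 0.05. Hc and Casp4 lie between 1.58 and 2.04 units from 0 where filled, and the Mx1 and Mx2 bars reach or come near 0 in all 4 panels.

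Nnt was lower in BL6 on 1 of its 2 tested probe sets, while the other did not pass with all arrays in the fit. On probe set 1416105_at the signal was 1142 and 807 on the hypoxic BL6 arrays and 839 on the normoxic one. In FVB/N the hypoxic arrays read 1833 and 1999 and the normoxic one 4917. In SV129 the hypoxic arrays read 2253 and 1694 and the normoxic one 1871. All 3 BL6 arrays lay below all 6 others. The highest value belonged to the normoxic FVB/N array, one of the 2 kidney-positive ones.

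On that probe set BL6 minus FVB/N was −1.47 ± 0.317 (2.77-fold lower in BL6, limma adjusted p = 0.0548) and BL6 minus SV129 −1.06 ± 0.317 (2.09-fold lower, adjusted p = 0.139), and neither passed. The first did pass with arrays centred on their medians (−1.58, adjusted p = 0.0389), with the deposited scaling kept (−1.50, 0.049) and with robust eBayes (−1.47, 0.0434). Without the 2 kidney-positive arrays the differences were −1.20 ± 0.22 and −1.23 ± 0.185, and both passed (adjusted p = 0.0466 and 0.0161). Leaving out the normoxic FVB/N array alone gave −0.99 and −1.06, and both passed (adjusted p = 0.0455 and 0.0127). Without hypoxic BL6 array 2 the first difference was −1.72 and passed (adjusted p = 0.0417). In 15 of the 21 other settings BL6 minus FVB/N did not pass (adjusted p up to 0.246). On the 6 hypoxic arrays alone it was −0.97 (adjusted p = 0.122). BL6 minus SV129 did not pass in 19 of the 21 (adjusted p up to 0.438). FVB/N minus SV129 was 0.40 ± 0.317 with all arrays (adjusted p = 0.571) and −0.03 ± 0.192 without the kidney-positive ones.

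Probe set 1456573_x_at of Nnt showed both a strain and a condition difference. Its signal was 305 and 195 on the hypoxic BL6 arrays and 841 on the normoxic one. In FVB/N the hypoxic arrays read 535 and 587 and the normoxic one 2235. In SV129 the hypoxic arrays read 820 and 626 and the normoxic one 1810. Within either condition BL6 was the lowest strain, although the strains overlapped once conditions were pooled. The suffix x marks probe sets that the array maker flagged as able to bind other transcripts too.

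BL6 minus FVB/N was −1.24 ± 0.217 on this probe set (2.36-fold lower in BL6, limma adjusted p = 0.0198) and BL6 minus SV129 −1.39 ± 0.217 (2.62-fold lower, adjusted p = 0.0118). The first lost its call when 1 array was left out, namely hypoxic BL6 array 5 (−1.08, adjusted p = 0.125), hypoxic FVB/N array 2 (−1.31, 0.0603), hypoxic FVB/N array 6 (−1.28, 0.0657) or normoxic BL6 (−1.28, 0.0868). It also did not pass without the 2 kidney-positive arrays (−1.22, adjusted p = 0.0983). Leaving out hypoxic BL6 array 5 also ended the second call (−1.23, adjusted p = 0.0747). The remaining Nnt probe set, 1432608_at, read 20.9 to 33.7 in BL6, 3.29 to 19.9 in FVB/N and 12.1 to 38.7 in SV129 and was below the filter.

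Hypoxic lung was lower than normoxic lung on 1456573_x_at, and 1416105_at did not pass. Of the 10 tested probe sets this was the only one to pass the hypoxia comparison, which 3.76% of all tested probe sets passed. The 6 hypoxic arrays had log2 levels of 7.74 to 9.72 and the 3 normoxic ones 9.74 to 11.15. The difference was −1.67 ± 0.188 (3.19-fold lower, limma adjusted p = 0.00905). The call was lost when normoxic BL6 (−1.64, adjusted p = 0.0692) or normoxic SV129 (−1.86, adjusted p = 0.0521) was left out, and it held without the 2 kidney-positive arrays (−1.60, adjusted p = 0.041). On 1416105_at the difference was −0.35 ± 0.275 with all arrays (adjusted p = 0.484) and −0.00 ± 0.185 without those 2.

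The gap between these Nnt probe sets was computed after their values had been seen and is given as a description, with no test. The log2 level of 1456573_x_at minus that of 1416105_at was −1.92 to −1.36 on hypoxic arrays. On the normoxic arrays it was 0.00 in BL6, −1.05 in FVB/N and −0.05 in SV129. The mean gap was −1.68 ± 0.236 on hypoxic arrays (n = 6) and −0.36 ± 0.595 on normoxic arrays (SD, n = 3). The bacterial control transcripts separated the same arrays, and their part in this gap was not tested.

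Strain by strain, 1416105_at had a hypoxic minus normoxic difference of 0.19 in BL6, −1.31 in FVB/N and 0.06 in SV129 (± 0.294 each). The FVB/N value passed (limma adjusted p = 0.0446) where 6.8% of all tested probe sets did, and it rests on the lone normoxic FVB/N array, a kidney-positive one. For 1456573_x_at the differences were −1.74 in BL6, −1.99 in FVB/N and −1.29 in SV129 (± 0.304 each), and the FVB/N one passed (adjusted p = 0.027). In BL6 and in SV129 0 of the 10 passed, where 0.0148% and 0% of all tested probe sets did, with 2 and 2 of the 10 below an unadjusted p of 0.05 in limma. No probe set of the 10 passed the interaction of strain and exposure in limma, and 1, 1416105_at, had an unadjusted p below 0.05 (0.0138, adjusted p = 0.268). Of all 27022 probe sets 0 passed that test (0%).

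**Figure D3:**
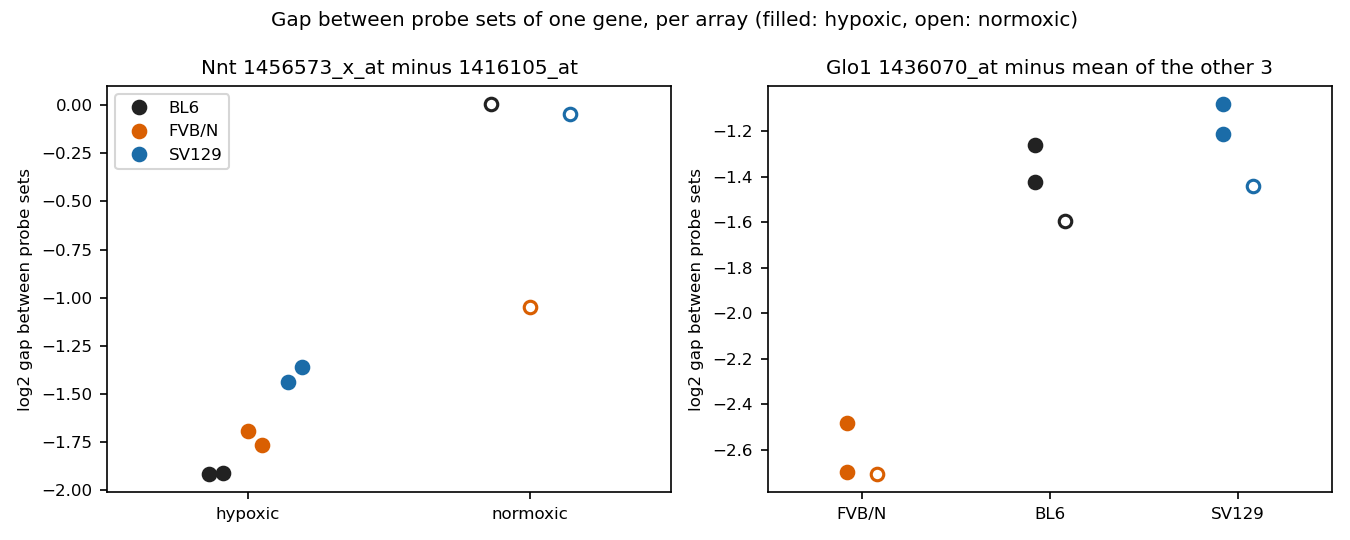
Log2 gap between probe sets of one gene on each array (y axis), for Nnt by condition and for Glo1 by strain, with filled points for hypoxic and open points for normoxic arrays. The Nnt gap is −1.36 or lower on all 6 hypoxic arrays, and the Glo1 gap is −2.48 or lower on all 3 FVB/N arrays.

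Genes that share the work of Nnt, making NADPH in mitochondria or spending it on peroxides, were read beside it. Of 12 listed 11 were tested and 0 passed any strain comparison or the hypoxia comparison in limma, where 4.85% of all genes passed at least 1 strain comparison and 2.75% hypoxia, with 1 below an unadjusted p of 0.05 in each of the 4. The list medians were −0.15 for BL6 minus FVB/N and 0.34 for BL6 minus SV129. Idh2, a mitochondrial isocitrate dehydrogenase that makes NADPH, had 0.24 ± 0.361 and 0.35 ± 0.361 for these. Prdx3, a mitochondrial peroxidase, had 0.51 ± 0.374 and 0.98 ± 0.374. Glrx2, the gene counted at an unadjusted p below 0.05 for BL6 minus FVB/N, had −0.56 ± 0.145 (limma adjusted p = 0.106) and −0.27 ± 0.145. It was thus lower in BL6, as Nnt was, while Idh2 and Prdx3 were higher there.

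Of the 4 Glo1 probe sets 1 passed a strain comparison. On 1436070_at the signal was 574 and 608 on the hypoxic BL6 arrays and 490 on the normoxic one. In FVB/N the hypoxic arrays read 238 and 227 and the normoxic one 232. In SV129 the hypoxic arrays read 486 and 577 and the normoxic one 517. The 3 FVB/N arrays lay close together and below all 6 others.

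On that probe set BL6 was 2.18-fold higher than FVB/N (log2 difference 1.13 ± 0.17 SE, limma adjusted p = 0.00942). FVB/N minus SV129 was −1.09 ± 0.17, a 2.13-fold lower signal in FVB/N (adjusted p = 0.01), and BL6 minus SV129 was 0.03 ± 0.17 (adjusted p = 0.947). The first call was lost when hypoxic BL6 array 5 was left out (1.07, adjusted p = 0.0812) and without the 2 kidney-positive arrays (1.20, 0.0697). The second did not pass without hypoxic FVB/N array 6 (−1.03, adjusted p = 0.0541) or the normoxic SV129 array (−1.08, 0.0712). Each kept its sign, and the 3 FVB/N signals of 227 to 238 were below 486 throughout.

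The other 3 Glo1 probe sets did not pass any comparison. On the brightest, 1424109_a_at, signals were 1920 to 2508 in BL6, 1530 to 2072 in FVB/N and 1091 to 1670 in SV129, so BL6 lay above SV129 on every array, with 0.22 ± 0.207 for BL6 minus FVB/N and 0.66 ± 0.207 for BL6 minus SV129 (limma adjusted p = 0.158). On 1424108_at they were 1013 to 1421, 1478 to 1751 and 1089 to 1399 in the same strains, so all FVB/N arrays were highest there (BL6 minus FVB/N −0.31 ± 0.165, adjusted p = 0.538). On 1451240_a_at they were 971 to 1649, 1254 to 1485 and 977 to 1582, with −0.14 ± 0.174 for BL6 minus FVB/N. The suffix a marks probe sets made to read several transcripts of one gene.

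The gap between 1436070_at and the mean of the other 3 Glo1 probe sets was also computed after the values had been seen, and it too is a description with no test. The gap was −2.63 ± 0.128 in FVB/N (SD, n = 3) and −1.34 ± 0.185 in BL6 and SV129 together (n = 6), a difference of −1.29. Hypoxic and normoxic arrays overlapped for this probe set (0.09 ± 0.148). For 1451240_a_at the 6 hypoxic arrays, at 971 to 1373, lay below the 3 normoxic ones, at 1485 to 1649, and the difference of −0.48 ± 0.151 did not pass (limma adjusted p = 0.109). Hypoxic and normoxic arrays were apart on 2 of the 10 probe sets, this one and Nnt 1456573_x_at, and on 10.7% of all tested.

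Among 8 tested genes of the glyoxalase pathway and of glutathione supply, 1 passed a strain comparison, as did 4.85% of all genes. Gclc, the catalytic subunit of the enzyme that starts glutathione synthesis, was 2.32-fold higher in FVB/N than in SV129 (12.47 ± 0.501 and 11.25 ± 0.582, SD, n = 3 each, limma adjusted p = 0.03). Hagh, the second glyoxalase, had −0.64 ± 0.409 for BL6 minus FVB/N and did not pass. For BL6 minus FVB/N, BL6 minus SV129 and hypoxia 0 of the 8 passed in limma, with 0, 2 and 1 below an unadjusted p of 0.05. The reference sequence upstream of Glo1 lies at chr17:30612660-30612909 on the minus strand of GRCm38.p6, from RefSeq, and is shown since all 4 probe sets read this gene. Capitals mark a match to CCAAT, searched on both strands.
Glo1: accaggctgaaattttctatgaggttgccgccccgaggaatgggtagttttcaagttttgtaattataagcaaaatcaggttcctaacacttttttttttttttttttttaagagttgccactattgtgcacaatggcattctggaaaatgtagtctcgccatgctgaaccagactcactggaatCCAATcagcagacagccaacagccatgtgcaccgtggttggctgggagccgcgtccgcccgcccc
CCAAT was in 33.9% of the 32841 windows, and the window shown does not tell how many copies of the gene a strain carries. A STAT motif, TTCNNNGAA, and an interferon response motif, GAAA, then any 2 bases, then GAAA, were also searched on both strands in the 3 windows shown and had 0 matches, where 7.02% and 2.98% of all windows held them.

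Mx1 and Mx2 were dim and passed no strain comparison. Mx1 read 38.3 to 86 in BL6, 42.7 to 75.2 in FVB/N and 46.8 to 55.4 in SV129. Mx2 read 49.9 to 66.1 in BL6, 42.2 to 85.4 in FVB/N and 15.2 to 74.9 in SV129. The strains overlapped for both, and the mean log2 levels, 6.16 for each gene over the 9 arrays, were just above the filter at 6.13. Mx1 differences were −0.16 ± 0.293 for BL6 minus FVB/N, 0.16 ± 0.293 for BL6 minus SV129 and 0.31 ± 0.293 for FVB/N minus SV129 (limma adjusted p from 0.637 to 0.908). Those of Mx2 were −0.17, 0.22 and 0.39 (± 0.409 each, adjusted p from 0.675 to 0.93). At this brightness these errors leave room for moderate differences in either direction. Hypoxic minus normoxic was −0.20 ± 0.254 for Mx1 and −0.33 ± 0.354 for Mx2.

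Some other interferon-induced genes passed a strain comparison. Of 20 antiviral genes listed 16 were tested, and 1 was higher in BL6 than in FVB/N (2.18% of all genes passed), 3 were higher in BL6 than in SV129 (2.29% of all passed) and 0 were lower in either. For FVB/N minus SV129 and for hypoxia 0 passed in limma, with 3 and 2 below an unadjusted p of 0.05. For BL6 minus FVB/N and BL6 minus SV129 these counts were 8 and 9 of the 16. Among the 9, Ifit2 was lower in BL6 (−0.66). Usp18, which removes ISG15 from proteins and damps interferon signalling, was 1.91-fold higher in BL6 than in FVB/N (limma adjusted p = 0.0225). Oasl2, an antiviral oligoadenylate synthetase-like protein, was 2.32-fold higher in BL6 than in SV129 (adjusted p = 0.0133). The virion-tethering protein gene Bst2 was 2.67-fold higher (adjusted p = 0.0439) and Zbp1, a nucleic acid sensor, 2.59-fold higher (adjusted p = 0.0177). The list medians were 0.49 for BL6 minus FVB/N and 0.59 for BL6 minus SV129, against −0.01 and −0.02 for all genes, while Mx1 and Mx2 had the values above.

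Pde6b, a gene of rod photoreceptors, read 1.61 to 2.36 in BL6, 1.85 to 7.97 in FVB/N and 2.38 to 3.44 in SV129. These signals lay below the filter, at log2 levels of 4.15 to 4.68, and were not tested. Most of the rod phototransduction list was below the filter as well, with 2 of 11 genes that had a probe set past it, and 0 of those 2 passed a comparison in limma (at an unadjusted p below 0.05, 0 for each strain comparison and 1 for hypoxia). Nothing about the FVB/N allele can be read from these signals. For Disc1, a scaffold protein of centrosome and neurites, 12 genes for its binding partners were tested. Of these Dixdc1 was 1.87-fold lower in FVB/N than in SV129 (9.12 ± 0.153 and 10.02 ± 0.107, SD, n = 3 each, limma adjusted p = 0.0366), where 2.89% of all genes passed, and 0 of the others passed any strain or hypoxia comparison in limma (4.85% of all genes for strain and 2.75% for hypoxia), with 3, 3, 5 and 6 of the 12 below an unadjusted p of 0.05 for BL6 minus FVB/N, BL6 minus SV129, FVB/N minus SV129 and hypoxia.

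Genes next to these loci were read to see whether a strain difference was shared along the chromosome. For each of the 8 genes the 3 nearest protein-coding genes with a tested probe set on either side were taken from the RefSeq gene table of GRCm38.p6, 42 distinct genes in all. Of these 5 passed at least 1 strain comparison, where 4.85% of all genes did. The 6 around Hc, on chromosome 2, included 0 that passed and 0 with an unadjusted p below 0.05 in limma. Around Casp4, on chromosome 9, 1 of 6 passed. Pdgfd, a platelet-derived growth factor, was 5.20-fold higher in BL6 and 5.22-fold higher in FVB/N than in SV129 (adjusted p = 0.00262 and 0.00222), the same direction as Casp4.

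Around Glo1, on chromosome 17, 2 of 6 passed, and both were lower in SV129 than in BL6. Dnah8, a dynein heavy chain, was 2.56-fold higher in BL6 and 2.83-fold higher in FVB/N than in SV129 (limma adjusted p = 0.0122 and 0.00711). Glp1r, the receptor for the incretin GLP-1, was 3.91-fold higher in BL6 than in SV129 (adjusted p = 0.0186). The called differences of Glo1, on 1436070_at, were lower in FVB/N, and BL6 minus SV129 was 0.03 ± 0.17 there. On 1424109_a_at, which passed no comparison, BL6 minus SV129 was 0.66 ± 0.207. Around Nnt, on chromosome 13, Tmem267 was 7.77-fold higher in BL6 and 12.8-fold higher in FVB/N than in SV129 (adjusted p = 0.00529 and 0.00145), and 4833420G17Rik was 3.55-fold and 3.57-fold higher (adjusted p = 0.00494 and 0.00408). These neighbours were thus lower in SV129, where the called differences of Nnt were lower in BL6. In at least 1 strain comparison, 5 of 6 Nnt neighbours and 3 of 6 Glo1 neighbours had an unadjusted p below 0.05 in limma. Around Mx1 and Mx2, which share their 6 neighbours on chromosome 16, around Pde6b on chromosome 5 and around Disc1 on chromosome 8, 0 of 6 passed at each, with 1, 2 and 0 below an unadjusted p of 0.05.

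**Figure D4:**
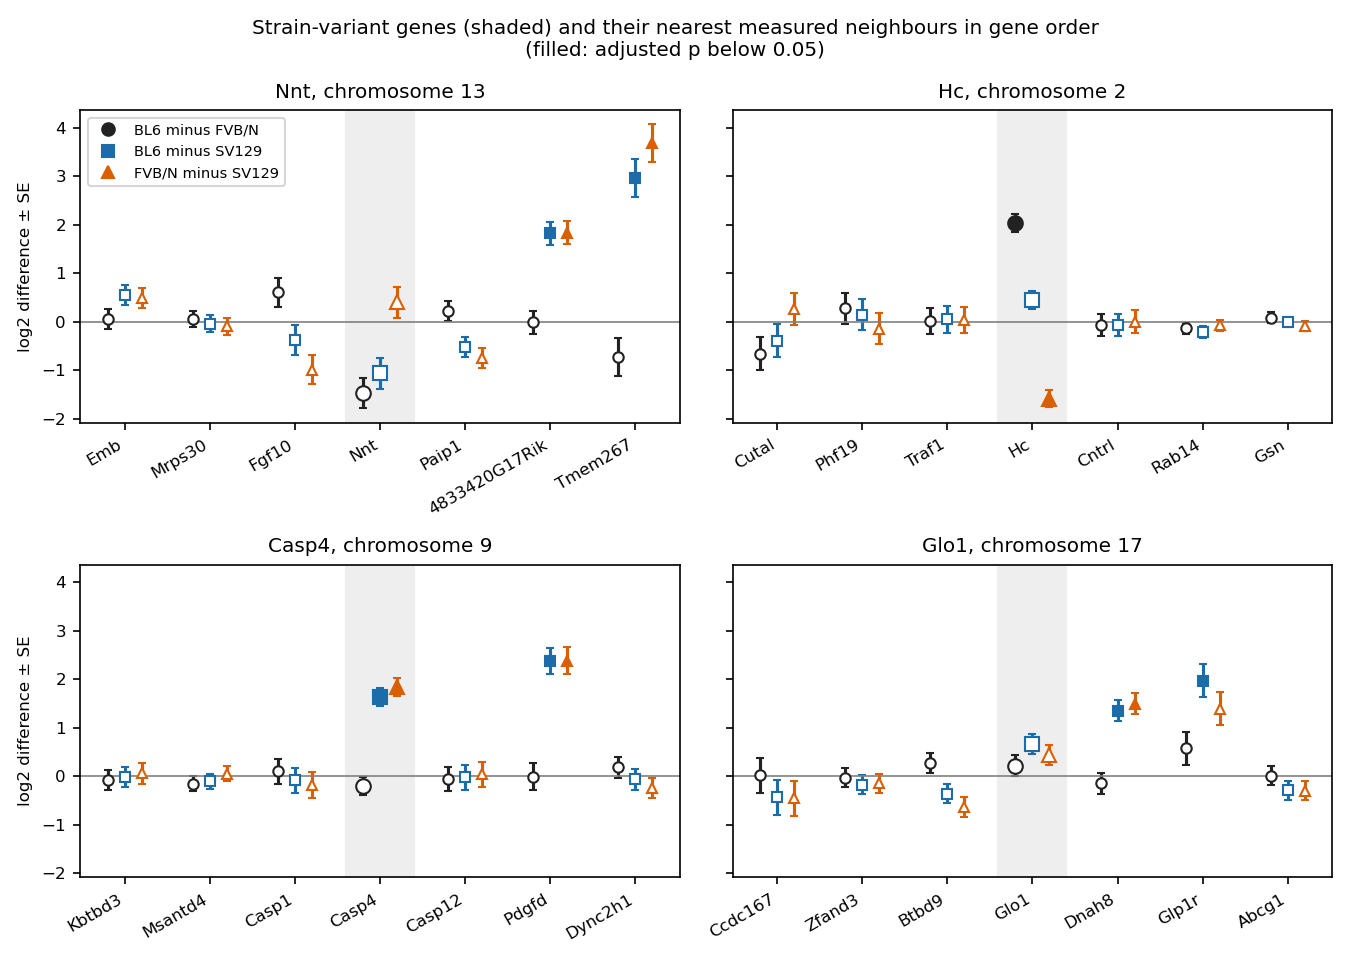
Log2 difference ± SE (y axis) of Nnt, Hc, Casp4 and Glo1 (shaded, brightest probe set of each) and of their 3 nearest measured neighbours on each side in gene order (x axis), for the 3 strain comparisons, filled where the adjusted p is below 0.05. Hc is filled and its 6 neighbours are not, at 2.04 for BL6 minus FVB/N, while Pdgfd, at 2.38 for BL6 minus SV129, lies on the same side as Casp4.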

How the data were processed

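Lung RNA was hybridised to one-colour Affymetrix arrays, per the labels' protocols. The deposited intensity values are linear signals, 1 per probe set and array. No source used here names the software that made them. The values show that the authors scaled each array to a mean of 500 with 2% of probe sets trimmed at each end. Another 12 arrays named in the series' design text were not analysed here.

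The 64 control probe sets were left out, 16 was added to each signal, and log2 values were quantile normalised. The dimmest 40% by mean were dropped. Strain and condition were fitted additively with limma 3.58.1 in R 4.3.3 (eBayes with an intensity trend, 5 residual degrees of freedom), and 6 groups for effects within a strain and the interaction (3 residual degrees of freedom, a lone normoxic array being assumed to vary like the hypoxic pairs). The fit was also run on simulated data of independent noise with added differences, and its outcome is not given here. Those data held no tissue or control-transcript differences between arrays. Lists were read through each gene's brightest probe set. No arrays were identical (correlations 0.842 to 0.975). Members and lists were chosen with earlier results of these data known. All probe sets of the members were named, list genes where they passed or are direct partners of a member, and neighbours by the nearest-gene rule. List genes given that did not pass, such as Casp1, C6 and Idh2, were chosen for their role after values were seen. Glrx2 and Cd59a were chosen for an unadjusted p below 0.05. Scalings, pseudocounts, filters, eBayes options, left-out arrays and blocks were varied.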

Additional observations from a re-analysis of the deposited data

How the results depend on the processing

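Over 21 other settings the counts of tested probe sets that passed were recomputed. With only the brightest probe set of each gene tested, 1 passed for BL6 minus FVB/N, 1 for BL6 minus SV129 and 0 for hypoxia, since the Nnt and Glo1 probe sets that passed are not the brightest of their genes. With arrays centred on their medians 2 passed for hypoxia, Hc being added. Leaving out 1 array at a time gave 1 to 4 for BL6 minus FVB/N, 1 to 3 for BL6 minus SV129, 2 to 3 for FVB/N minus SV129, 0 to 1 for hypoxia and 0 to 0 for the interaction, which could not be fitted without a normoxic array or without the 2 kidney-positive arrays.

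With the array number of the titles as a replicate block in place of condition, 1 passed for BL6 minus FVB/N, where Glo1 1436070_at (1.01, adjusted p = 0.142) and Nnt 1456573_x_at (−1.19, 0.167) did not pass. Between strains, the deviations of arrays had correlations of −0.026, −0.0422 and −0.188. These values cannot tell whether the numbers pair the samples. The hypoxic FVB/N arrays do not all share numbers with those of the other strains, and a hypoxic BL6 array was kidney-positive. On the 6 hypoxic arrays alone Nnt 1456573_x_at (−1.17, adjusted p = 0.0894) for BL6 minus FVB/N and Glo1 1436070_at (−1.14, 0.0526) for FVB/N minus SV129 did not pass. The member differences that passed for strain, or for hypoxia over the 3 strains, kept their sign in all settings that gave a value, while hypoxia within a strain, list genes and neighbours were not recomputed under other settings. Without detection calls, no limit could be set for dim signals.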

Other observations

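For each gene with a tested probe set, the 3 other genes whose brightest probe sets tracked its own most closely over the 9 arrays were looked up among 12894 genes. All values share the same 9 arrays, and the correlations describe strain and tissue differences together. Casp4 was followed most closely by Ppbp, a platelet chemokine (Pearson r = 0.986), 2010315B03Rik (0.981) and Cd209a, a lectin of dendritic cells (0.98). For Hc they were Ift27 (0.984), Junos (0.983) and Aph1b (0.982). Nnt 1416105_at was nearest to Abhd1 (0.981), Bckdhb, a mitochondrial dehydrogenase subunit (0.979), and Alad, an enzyme of haem synthesis (0.964). For Glo1 1424109_a_at the nearest was Unc5cl (0.951), for Mx2 Nprl3 (0.945) and for Mx1 Naip2 (0.856).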
